A study of Sus scrofa with 20 samples.

Results

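BAFF and APRIL are a pair of related cytokines of the tumour necrosis factor superfamily that keep B cells and plasma cells alive, and together with their 3 receptors they form a system of 5 genes. The transcripts described here are those of the ligands TNFSF13B (BAFF) and TNFSF13 (APRIL) and of the receptors TNFRSF13C (BAFF receptor), TNFRSF13B (TACI) and TNFRSF17 (BCMA). They were selected by gene symbol, as a family whose diet differences had been measured in these same animals, so the differences between diets given below are a description and carry no test. Each gene was read by 1 probe set, which makes 5 of the 47845 probe sets of the array and 5 of its 13664 named genes. The samples were peripheral blood mononuclear cells (PBMC) of 20 German Landrace piglets, females and castrated males, taken at 63 days of age, with 1 array per animal. The piglets had been fed wheat and barley based diets from weaning that were low (L), medium (M) or high (H) in both phosphorus and calcium. The study describes the ratio of these minerals as constant, although the ratios it measured differed somewhat between the diets. M was the control diet with the recommended amounts. There were 6 L animals (3 females, 3 males), 7 M animals (4 females, 3 males) and 7 H animals (3 females, 4 males). Animals on the H diet also ate less, gained less weight, had lower serum zinc and had skin lesions. In this group high mineral intake and these states cannot be told apart. The piglets came from several litters, which the sample labels do not give.

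In mice and humans BAFF is made mainly by monocytes, macrophages, dendritic cells and neutrophils, either anchored in the membrane or released by furin-like proteases. It acts through the BAFF receptor, which maturing B cells need to survive, and also binds TACI, a receptor of activated and memory B cells that can hold B cell responses back. APRIL binds TACI and BCMA, the latter a receptor that rises as B cells become plasma cells. PBMC hold monocytes and dendritic cells side by side with B cells, whereas the density gradient used to prepare them is meant to remove most neutrophils. In a bulk RNA sample fewer cells of a type and less RNA per cell cannot be told apart.

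All values are log2 levels after robust multichip average (RMA) normalization, so a difference of 1 is a doubling of the signal, and levels were not compared between genes because each probe set has its own sensitivity. Array medians lay between 4.29 and 4.46 and pairs of arrays correlated with r between 0.958 and 0.985. Of the lineage markers, MS4A1 (CD20) and CD79A of B cells, CD14 of monocytes, CSF3R of neutrophils and CD3E of T cells were measured, with mean levels of 11.02, 9.24, 8.17, 10.19 and 10.01. The monocyte marker CSF1R was not found by name. The array carries 69 probe sets for background signal, and their mean lay between 3.57 and 4.17 on single arrays. By diet this background level was 3.78 ± 0.17 for L (SD, n = 6), 3.85 ± 0.23 for M (SD, n = 7) and 3.79 ± 0.11 for H animals (SD, n = 7).

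TNFSF13B, the BAFF ligand, had its highest levels in the H animals. Its lowest, median and highest levels were 7.04, 7.48 and 8.51 in the L animals. They were 7.39, 7.72 and 8.43 in the M animals. They were 7.80, 8.69 and 9.27 in the H animals. The groups overlapped: 4 of the 7 H animals were above the highest L animal, 4 of the 6 L animals were below the lowest H animal, and all 7 H animals were above the L median. The group means were 7.62 ± 0.54 in L (SD, n = 6), 7.85 ± 0.40 in M (SD, n = 7) and 8.49 ± 0.55 in H (SD, n = 7). H minus L was 0.89 (SE 0.25), a 1.85-fold higher signal, and H minus M was 0.68 (SE 0.24). M minus L was 0.21 (SE 0.25), which is smaller than its own standard error, and the M mean lay 0.264 of the way from the L to the H mean.

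**Figure D1:**
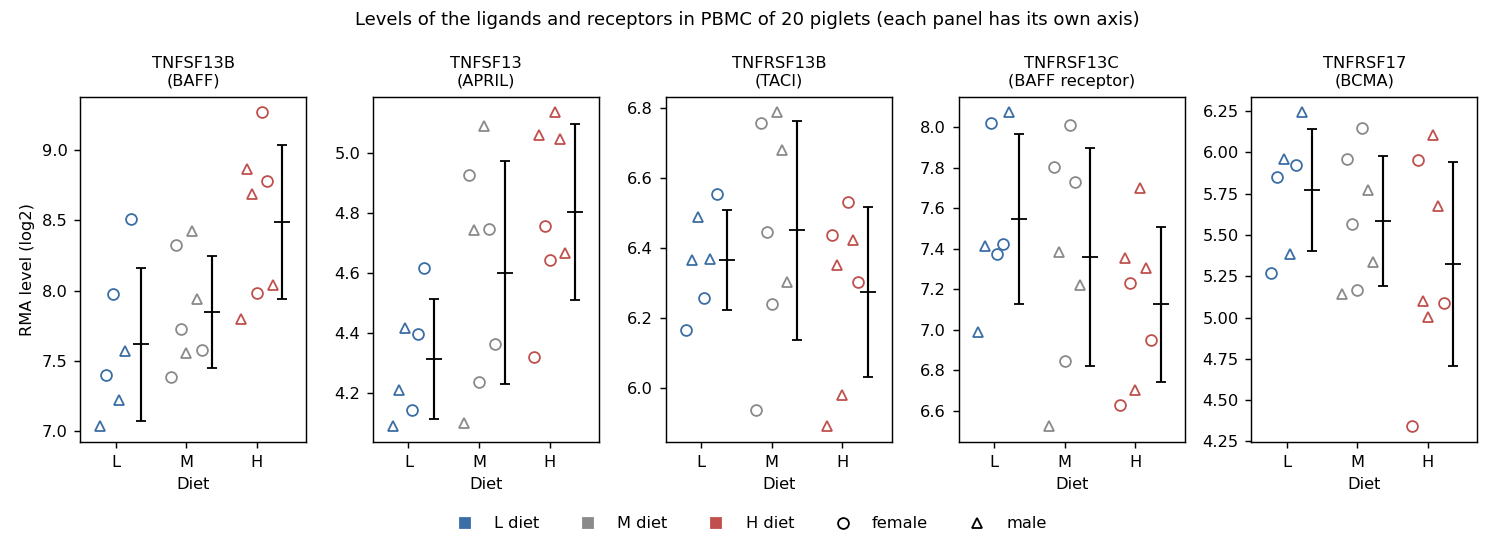
RMA level (log2) of each of the 5 genes in each of the 20 animals by diet, with circles for females and triangles for males; black bars give the mean ± SD of each diet, and each panel has its own axis. The H points of TNFSF13B reach 9.27 and those of TNFSF13 5.13, whereas TNFRSF13C and TNFRSF17 have their lowest diet mean in H and TNFRSF13B shows little order by diet.

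TNFSF13, the APRIL ligand, was close to the detection limit. The probe set is named APRIL in the array annotation and was assigned to TNFSF13 as the only gene with that synonym in the RefSeq table; the unrelated gene ANP32B has also carried this name, and the design of the probe set allows shared probes with other transcripts. Its level was above the median of the array on 13 of 20 arrays, so it did not pass the filter on low values, and its differences come from the fit without that filter. Its lowest, median and highest levels were 4.09, 4.30 and 4.62 in the L animals. The corresponding M levels were 4.10, 4.74 and 5.09. The H levels were 4.32, 4.75 and 5.13. The probe set was above the array median in 3 of 6 L animals, in 4 of 7 M animals and in 6 of 7 H animals, and 6 of the 7 H animals exceeded the highest L animal. H minus L was 0.48 (SE 0.16), M minus L was 0.30 (SE 0.16) and H minus M was 0.19 (SE 0.16). The M mean lay 0.588 of the way from L to H, but with a spread in M (SD 0.37, n = 7) that covered the L range.

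Of the receptors, TNFRSF13C and TNFRSF17 pointed the other way. TNFRSF13C, the receptor that mature B cells depend on, had lowest, median and highest levels of 6.99, 7.42 and 8.07 in L. These were 6.52, 7.39 and 8.01 in M and 6.63, 7.23 and 7.70 in H. Only 2 of the 6 L animals were above the highest H animal, 3 of the 7 H animals were below the lowest L animal, and the M animals covered almost the whole range. H minus L was -0.41 (SE 0.24), M minus L was -0.20 (SE 0.24) and H minus M was -0.22 (SE 0.23).

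TNFRSF17, the BCMA receptor of plasma cells and their precursors, ranged from 5.27 over a median of 5.89 to 6.24 in the L animals. In the M animals these levels were 5.14, 5.56 and 6.15. In the H animals they were 4.34, 5.10 and 6.11, and H animal 6, a female, had the lowest level of the series and also the highest TNFSF13B level. In H 4 of 7 animals were below the lowest L animal, and the spread was wider (SD 0.62, n = 7) than in L (SD 0.37, n = 6). H minus L was -0.45 (SE 0.25), M minus L was -0.18 (SE 0.25) and H minus M was -0.27 (SE 0.24).

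TNFRSF13B, which encodes TACI, had no clear order by diet. Its lowest, median and highest levels were 6.17, 6.37 and 6.56 in L, 5.94, 6.45 and 6.79 in M and 5.89, 6.35 and 6.53 in H. H minus L was -0.09 (SE 0.14), M minus L was 0.09 (SE 0.14) and H minus M was -0.18 (SE 0.14). Each of the 3 groups overlapped widely with the others, and the M animals held both the highest and one of the lowest levels.

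Set side by side, both ligands had positive and both TNFRSF13C and TNFRSF17 negative H minus L and M minus L differences, and M was between L and H for these 4 genes. Across the whole array 6 of the 22127 probe sets that passed the filter were called between H and L (limma with sex as a covariate, unadjusted p under 0.01 and Storey q under 0.21), which is 0.0271%. The number of calls ran from 0 to 312 when 1 animal was left out. Between H and M 5 probe sets were called (0.0226%). Between M and L limma called 0 probe sets (0%), where 501 had an unadjusted p under 0.05 and 0 passed a Benjamini-Hochberg adjusted p of 0.05. Nothing is read from these calls for the 5 genes, since their diet differences were known when they were selected and TNFSF13 was not among the probe sets tested. Over the 9346 named genes that passed the filter, the median H minus L difference was -0.02, and 45.1% of the genes were above 0. Only 2 of the 5 genes, TNFSF13B and TNFSF13, lay above 0 in that contrast, at 0.89 and 0.48.

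**Figure D2:**
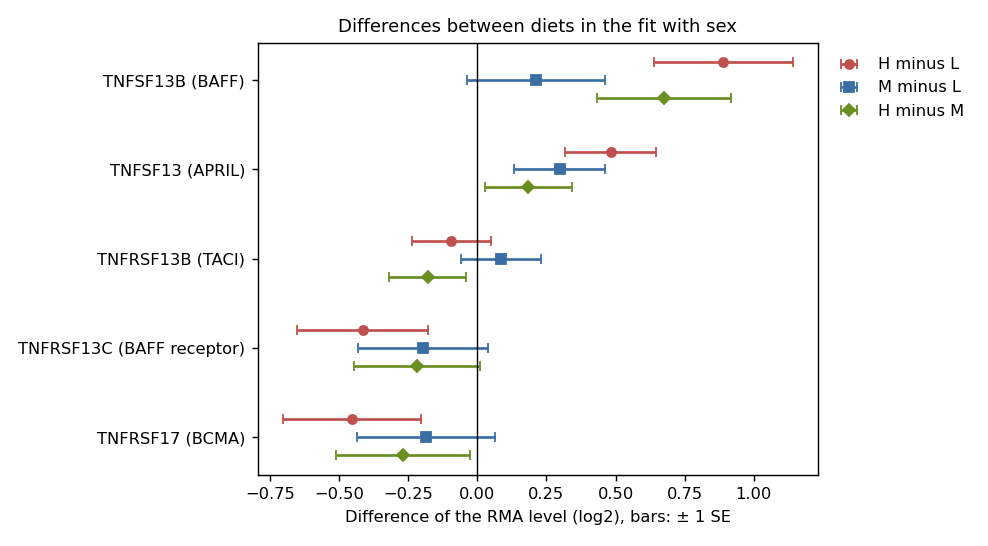
Differences of the log2 RMA level between diets for the 5 genes in the fit with sex (points), with ± 1 SE as bars; circles give H minus L, squares M minus L and diamonds H minus M. The points of the ligands lie right of 0 and those of TNFRSF13C and TNFRSF17 left of it. The M minus L bars include 0 for all genes except TNFSF13. So do the H minus L bar of TNFRSF13B and the H minus M bar of TNFRSF13C.

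Females and males did not differ detectably in any of the 5 genes. The largest sex difference was that of TNFSF13B, at -0.25 (SE 0.20) for males minus females (limma, q = 0.9999), and the others were between -0.11 and 0.12, with q at the same value or above. Over the whole array 4 probe sets were called between the sexes (0.0181%). The H minus L difference of TNFSF13B was 1.07 in males and 0.72 in females, and the difference between these effects was 0.36 (SE 0.48, limma, q = 0.827). For TNFSF13 it was 0.74 in males and 0.19 in females, a difference of 0.55 (SE 0.32, q = 0.892 in limma). For the receptors the male effect minus the female effect was -0.35 (SE 0.28) for TNFRSF13B, 0.44 (SE 0.45) for TNFRSF13C and 0.16 (SE 0.50) for TNFRSF17, with q in limma between 0.805 and 0.865. Limma called 0 probe sets for the difference between the sexes in the diet effect (0%), where 1134 had an unadjusted p under 0.05. With 3 or 4 animals per diet and sex, effects of this size could not be resolved.

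Which blood cells the 5 genes moved with was asked among animals of the same diet, after the mean of each diet was subtracted, because these differences were not used to select the genes. Marker scores were the mean, over the markers of a cell type that passed the filter on low values, of the log2 level minus its mean over all arrays. Relations were tested by a two-sided permutation test within diets over the 20 animals, and 20 relations (5 genes with the scores of B cells, monocytes, neutrophils and T cells) were adjusted together by the Benjamini-Hochberg method.

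TNFSF13B followed the myeloid markers. With the 9 monocyte markers that passed (of 11 on the array) its within-diet r was 0.83 (rho 0.85, permutation p = 7e-05 and 5e-05, adjusted p = 0.000467 and 0.000333). The r was 0.88 in L, 0.65 in M and 0.91 in H, and 0.80 without the 2 animals of most extreme score. With the 9 neutrophil markers that passed (of 11) r was 0.85 (rho 0.86, permutation p = 2e-05 for each, adjusted p = 0.0002 for each), at 0.73 in L, 0.92 in M and 0.89 in H, and 0.82 without the 2 most extreme animals. Each score was related to TNFSF13B on its own, so the relations to monocyte and to neutrophil markers were not separated from each other. Animals with more TNFSF13B had lower T cell markers, with r = -0.74 (rho -0.70, permutation p = 0.00045 and 0.00252, adjusted p = 0.0018 and 0.0101), and -0.63 without the 2 most extreme animals. They also had lower B cell markers, with r = -0.60 (rho -0.60, permutation p = 0.00833 and 0.00774, adjusted p = 0.0278 and 0.0258), and -0.47 without the 2 most extreme animals. The relation to B cell markers missed the threshold without L animal 6, M animal 4, H animal 4 or H animal 6, and was uneven, with r = -0.27 in L, -0.61 in M and -0.88 in H.

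TNFRSF13C followed the 15 B cell markers on the array, all of which passed and from which the 5 genes were left out, and it had the largest r of the 20 relations, 0.93 (rho 0.92, permutation p = 1e-05 and 2e-05, adjusted p = 0.0002 for each). The smallest p that this permutation test can give is 1e-05. The r was 0.94 in L, 0.93 in M and 0.92 in H, so the relation had the same size in each diet, and it was 0.92 without the 2 most extreme animals. TNFRSF17 also followed the B cell markers, at r = 0.77 (rho 0.77, permutation p = 0.00012 and 0.00023, adjusted p = 0.0006 and 0.00115), with 0.73 in L, 0.93 in M and 0.74 in H, and 0.71 without the 2 most extreme animals.

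No such relation was detected for TNFRSF13B, although TACI is a B cell receptor: its r with the B cell markers was -0.24 (rho -0.21, permutation p = 0.349 and 0.417, adjusted p = 0.387 and 0.463). None of its 4 relations passed an adjusted p of 0.05, and neither did any of TNFSF13, whose r values lay between 0.18 and 0.31. TNFRSF13B moved instead with the background control probe sets of the array, with r = 0.76 (rho 0.75, permutation p = 0.0005 and 0.00113, adjusted over the 5 genes p = 0.0025 and 0.00565), a comparison added after the values had been seen. The same background level correlated negatively with TNFRSF13C (r = -0.60), TNFSF13 (r = -0.55) and TNFRSF17 (r = -0.54), with adjusted p in the permutation test between 0.0218 and 0.0337, and not detectably with TNFSF13B (r = 0.08, permutation p = 0.729). The rank correlations with TNFRSF13C (rho -0.50) and TNFSF13 (rho -0.49) missed the threshold (adjusted permutation p = 0.0713 for each), and without the 2 arrays of most extreme background level r was -0.35 and -0.39. The B cell score itself had r = -0.61 with the background level. Whether the TNFRSF13B probe set reports TACI transcript in these cells was not tested.

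**Figure D3:**
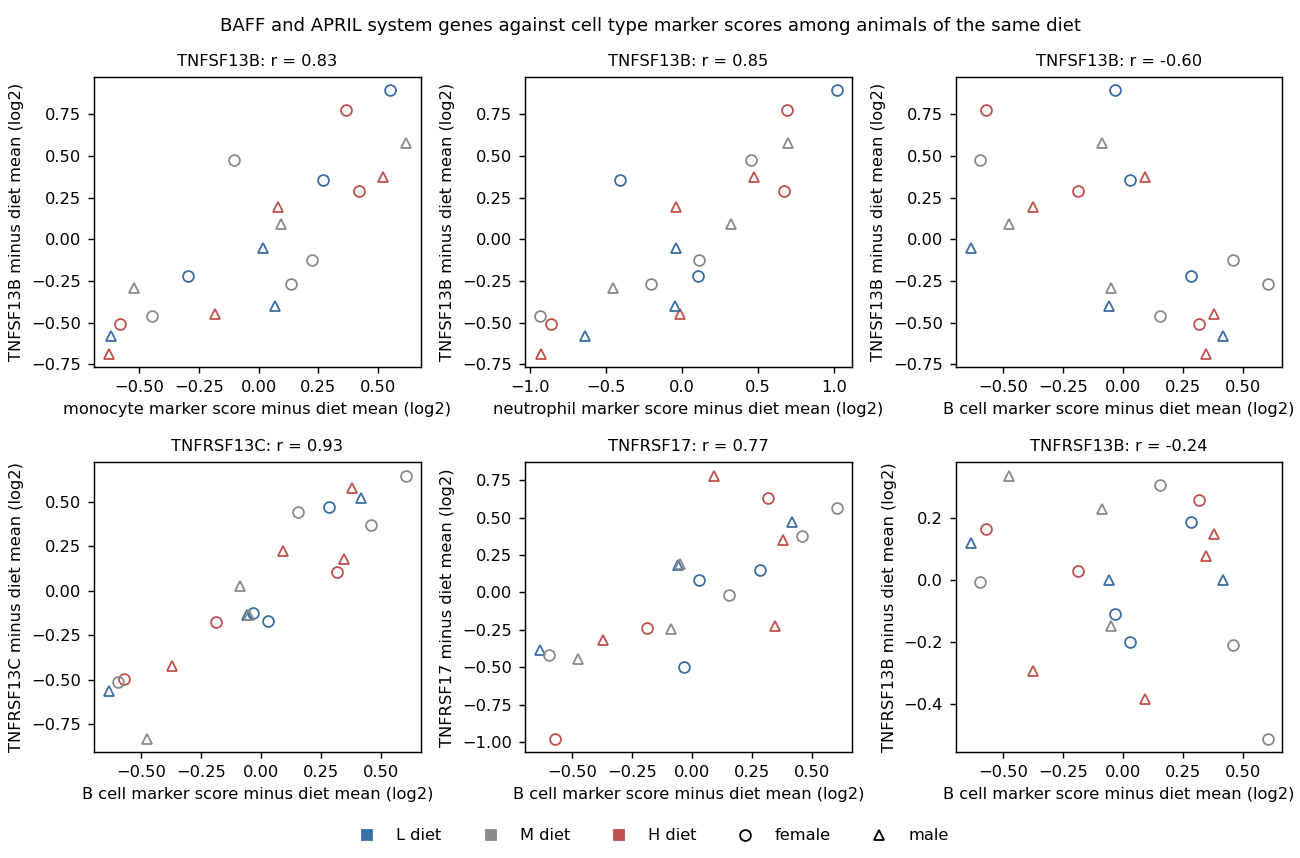
Level of a gene against a cell type marker score, both as log2 with the diet mean removed, for the 20 animals (colour: diet; circles: females; triangles: males). TNFSF13B rises with the monocyte (r = 0.83) and neutrophil (r = 0.85) scores and falls with the B cell score (r = -0.60), TNFRSF13C (r = 0.93) and TNFRSF17 (r = 0.77) rise with the B cell score, and r was -0.24 for TNFRSF13B.

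When the background level was removed together with the diet means, TNFSF13B kept r = 0.84 with monocyte and 0.85 with neutrophil markers. TNFRSF13C kept r = 0.89 and TNFRSF17 r = 0.67 with B cell markers (adjusted permutation p = 0.0002 and 0.0242). The r of TNFRSF13B with the B cell markers changed from -0.24 to 0.41, which did not pass the threshold (adjusted permutation p = 0.171).

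Among the genes themselves 10 pairs were compared within diets in the same way. The receptors TNFRSF13C and TNFRSF17 rose and fell together, with r = 0.72 (rho 0.73, permutation p = 0.00043 and 0.0006, adjusted p = 0.0043 and 0.006). The r was 0.72 in L, 0.83 in M and 0.75 in H, and 0.68 without the 2 animals farthest from the TNFRSF13C median. The BAFF ligand and 2 of the receptors were inversely related within a diet: for TNFSF13B and TNFRSF13C r was -0.54 (rho -0.53, permutation p = 0.0174 and 0.0219, adjusted p = 0.0435 and 0.0547). For TNFSF13B and TNFRSF17 r was -0.57 (rho -0.58, permutation p = 0.016 and 0.0155, adjusted p = 0.0435 and 0.0518). Both passed the threshold with Pearson's r and missed it with Spearman's rho, the adjusted p of r passed in only 6 and 5 of the 20 cases in which 1 animal was left out, both had a negative r in each of the 3 diets, and without the 2 animals of most extreme TNFSF13B r was -0.42 and -0.40. Within diets TNFRSF13C (r = 0.93) and TNFRSF17 (r = 0.77) also followed the B cell score, and TNFSF13B ran against it (r = -0.60). Whether the ligand and these receptors were related apart from that score was not tested. For TNFSF13B and the third receptor, TNFRSF13B, r was -0.15 (rho -0.20, permutation p = 0.530 and 0.404), with -0.56 in L, 0.30 in M and -0.39 in H. The pair of ligands had r = 0.13 (rho 0.12, permutation p = 0.572 and 0.602), so animals with more BAFF transcript were not detectably those with more APRIL transcript.

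The probe sets of TNFSF13 and TNFRSF13B were also inversely related, with r = -0.67 (rho -0.65, permutation p = 0.00644 and 0.00951, adjusted p = 0.0322 and 0.0476). This held in each diet, with r = -0.76 in L, -0.68 in M and -0.62 in H, and r was -0.60 without the 2 animals of most extreme TNFSF13. With M animal 1, H animal 3 or H animal 7 left out, the adjusted permutation p was 0.0537, 0.0577 and 0.0649. Both probe sets moved with the background level in opposite directions, and with that level removed r was -0.46 and its adjusted permutation p was 0.0873. With the background level removed the other 3 pairs had adjusted p = 0.0301 in the permutation test, with r = 0.59 for TNFRSF13C and TNFRSF17, -0.61 for TNFSF13B and TNFRSF13C and -0.63 for TNFSF13B and TNFRSF17. The remaining 6 pairs had r between -0.38 and 0.32 with only the diet means removed, and none passed the threshold. With the background level removed as well their r lay between -0.32 and 0.48, and again none passed.

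**Figure D4:**
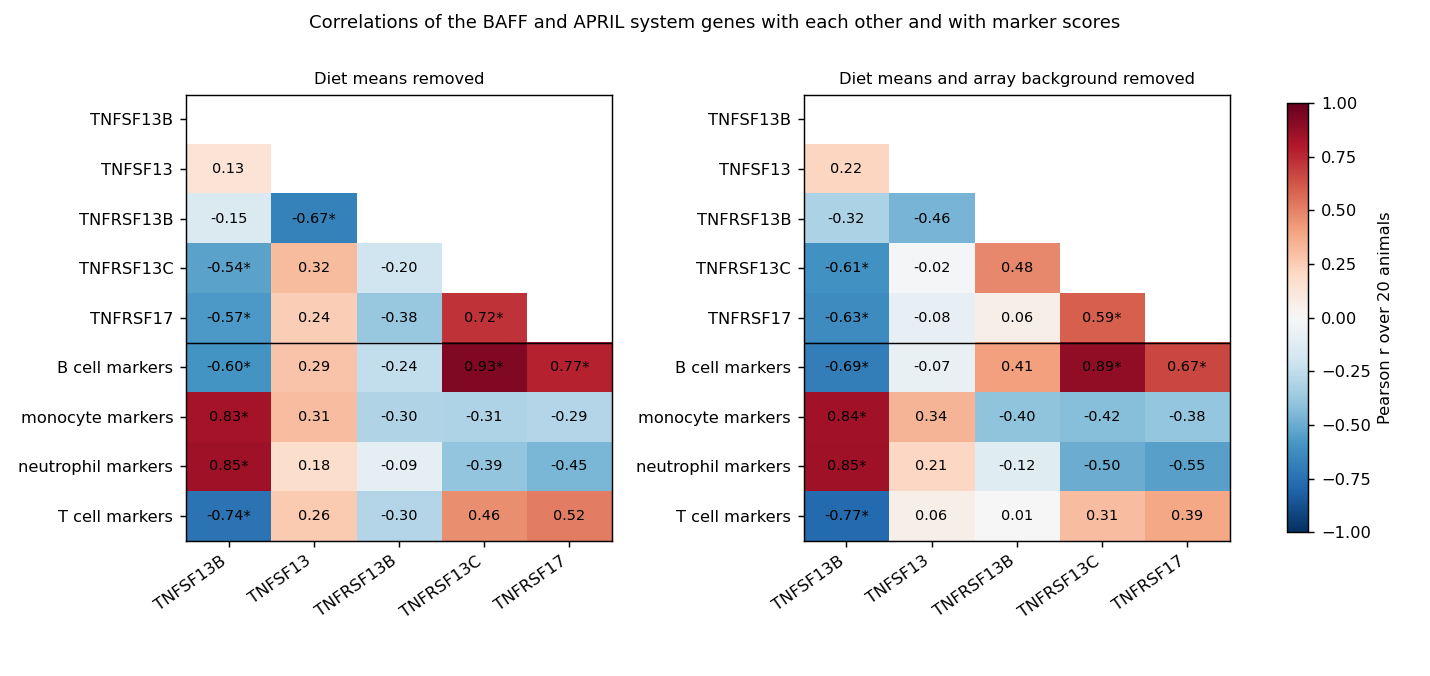
Pearson r over 20 animals between the 5 genes (upper block) and between the genes and 4 marker scores (lower block), with diet means removed (left) and with diet means and the background level of the array removed (right); an asterisk marks an adjusted permutation p under 0.05. TNFSF13B is positive with myeloid and negative with lymphocyte markers in both panels, and the pair TNFSF13 and TNFRSF13B loses its asterisk on the right, where r is -0.46.

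In H minus L the marker scores lay on the same side as the genes that followed them. The monocyte score ran from -0.90 to 0.27 in L, from -0.64 to 0.50 in M and from -0.26 to 0.89 in H. All 9 monocyte markers that passed the filter were above 0 in H minus L, with a median difference of 0.60, and so were all 9 neutrophil markers that passed, with a median of 0.62, beside -0.02 over all genes. Of the B cell markers 13 of 15 were below 0, with a median of -0.23. The B cell score ran from -0.49 to 0.57 in L, from -0.62 to 0.58 in M and from -0.68 to 0.27 in H. Of the T cell markers 11 of 11 were below 0, with a median of -0.36. Of the plasma cell markers that passed the filter 5 of 8 were below 0, with a median of -0.12. Their relation to TNFRSF17 was not tested. In H minus M 9 of the 15 B cell markers were below 0, with a median of -0.03, whereas TNFRSF13C was at -0.22 and TNFRSF17 at -0.27. With the monocyte and neutrophil scores as covariates, the H minus L difference of TNFSF13B was 0.24 (SE 0.17) instead of 0.89 (SE 0.25), and that of TNFSF13 was 0.34 (SE 0.19). The same covariates gave -0.15 (SE 0.27) for TNFRSF13C and -0.19 (SE 0.28) for TNFRSF17, without the B cell score. With the B cell score as the only such covariate, the difference of TNFRSF13C was -0.15 (SE 0.11) instead of -0.41, that of TNFRSF17 was -0.22 (SE 0.17) instead of -0.45, and that of TNFSF13B was 0.69 (SE 0.21). Covariates measured in the same RNA also take up any effect of the diet on the markers, so the part of cell composition in these differences was not tested.

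Genes that act with the ligands and receptors were described from 8 lists with 101 entries, of which 86 were on the array and 78 passed the filter. In H minus L 50 of the 78 were above 0 and 28 below, with a median of 0.07, none was called, and none had an unadjusted p under 0.01 in either direction (5 without L animal 5 and 8 without H animal 7). Over all 9346 genes 1.4% were higher and 0.781% lower in H at that p. In M minus L none of the 78 reached it, against 0.118% higher and 0.128% lower over all genes. In H minus M 1 of the 78 was lower and none higher, against 1.07% and 0.61% over all genes. That gene was BCL2L1, a survival gene of the BCL2 family that is also strongly used by erythroid cells, at 8.16 ± 0.66 in L (SD, n = 6), 8.43 ± 0.66 in M (SD, n = 7) and 7.41 ± 0.56 in H (SD, n = 7). Its H minus M difference was -1.09 (SE 0.29, limma, q = 0.489), so it was not called, and its H minus L difference was -0.78 (SE 0.30, limma, q = 0.455). The 5 measured erythroid markers had a median of -0.94 in H minus M and of -0.59 in H minus L. Their part in the BCL2L1 values was not tested.

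Upstream of BAFF, the receptors for cytokines and ligands that raise its production in myeloid cells had the highest median of the 8 lists. Of the 8 genes that passed the filter 7 were above 0 in H minus L, with a median of 0.39. TLR4, the receptor for bacterial lipopolysaccharide, was at 8.25 ± 0.83 in L (SD, n = 6) and 9.16 ± 0.78 in H (SD, n = 7), a difference of 0.93 (SE 0.36). CSF3R, the receptor for granulocyte colony-stimulating factor, differed by 0.80 (SE 0.32) and IFNAR2, a chain of the type I interferon receptor, by 0.32 (SE 0.12). CSF3R is also one of the neutrophil markers. The monocyte and neutrophil markers had higher medians in the same contrast, 0.60 and 0.62. The part of myeloid cell composition in the values of this list was not tested.

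The proteases that release BAFF or trim its receptors were near 0, with 6 of 7 genes above 0 and a median of 0.04. FURIN, the protease that cuts BAFF from the membrane, was at 0.24 (SE 0.16) and ADAM17 at 0.20 (SE 0.15). PSENEN, a subunit of the gamma-secretase that trims BCMA, was at -0.27 (SE 0.15).

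Downstream of the receptors, adaptors and the alternative NF-kappaB route had a median of 0.08 over 10 genes, with MAP3K14, the kinase that starts this route, at 0.11 (SE 0.11). Classical NF-kappaB genes had a median of 0.06 over 7 genes, with 6 above 0 and IKBKB, a kinase of the inhibitor of NF-kappaB, at 0.24 (SE 0.12). Partners in B cell receptor and PI3K signalling had a median of 0.04 over 12 genes. LYN, a kinase of B cells and myeloid cells, was at 0.37 (SE 0.17) and VAV2, a signalling adaptor downstream of antigen receptors, at -0.43 (SE 0.21). Among survival targets 4 of 8 genes were above 0. The largest difference was the -0.78 of BCL2L1 given above, and on the other side lay MCL1, which plasma cells need downstream of BCMA in mice, at 0.35 (SE 0.14) and CFLAR, an inhibitor of death receptor signalling, at 0.27 (SE 0.12).

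Of the other ligands of the superfamily 3 of 12 were above 0 in H minus L, with a median of -0.05, TNFSF4 (OX40 ligand) at -0.52 (SE 0.18), LTB (lymphotoxin beta) at -0.40 (SE 0.19) and TNF itself at 0.17 (SE 0.10). Of the other receptors 10 of 14 were above 0, with a median of 0.11. The TNF receptors TNFRSF1A and TNFRSF1B were at 0.44 (SE 0.19) and 0.46 (SE 0.20), and CD40, the receptor by which T cells help B cells, was at -0.43 (SE 0.21). In limma the q values of all these named genes in H minus L were between 0.442 and 0.779.

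The genes whose levels were most like each of the 5 were sought among the other 9342 named genes that passed the filter, by Pearson's r over all 20 arrays, which share the diets and the background level and give these values as a description. TNFSF13B was most like IL1RAP, the accessory chain of the interleukin-1 receptor (r = 0.96), ZCCHC6, an enzyme that adds uridines to RNA (0.95), and JAK2, a kinase of cytokine receptors (0.94). TNFRSF13C was most like the B cell genes CD79B (r = 0.96), which encodes a signalling chain of the B cell receptor, and MS4A1 (0.92), with KIAA0040 (0.93) between them. The closest genes to TNFSF13 were SLA-7, a class I histocompatibility gene of the pig (r = 0.87), LPAR6, a lysophosphatidic acid receptor (0.86), and CHSY1, a chondroitin synthase (0.82).

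The receptors TNFRSF13B and TNFRSF17 had no B cell marker among their 3 nearest genes. For TNFRSF13B these were IDH3B, a subunit of mitochondrial isocitrate dehydrogenase (r = 0.91), MOSPD1 (0.90) and NFAT5, the transcription factor of the osmotic stress response (0.90). For TNFRSF17 they were NDUFA1, a subunit of respiratory complex I (r = 0.90), the splicing factor SF3B1 (0.89) and the translation factor EIF4A2 (0.88). A correlation of 0.79 for TNFRSF13B and of 0.78 for TNFRSF17 was exceeded by only the top 1% of genes.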

How the data were processed

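PBMC were isolated from EDTA blood on a density gradient, and RNA was hybridized to snowball arrays (Affymetrix). The deposited values are log2 levels, which the authors made from array intensities by RMA; the labels name GCOS 1.1.1. Quantile normalization within RMA removes shifts common to all transcripts. The 5 genes and all gene lists were chosen with earlier results of these data known. Control probe sets (123) were left out, and the filter on low values kept the 22127 probe sets that exceeded the median of their array in 80% of cases or more (16 of 20 arrays). The names of 446 probe sets were updated through unique synonyms. The probe set of highest mean stood for a gene. The model in limma 3.58.1 (R 4.3.3) held diet and sex. Calls needed p under 0.01 before adjustment as well as q under 0.21 by Storey's method. The methods' fixed effect of litter is not in the labels and was left out, so p-values treat littermates as independent. Correlations used 100000 permutations within diets (numpy 2.4.6, scipy 1.17.1). Named genes were the 5 genes, their 3 most similar genes, up to 3 genes of smallest p between H and L in each list, and defining markers. The steps were tested on simulated data. The number of arrays limits the precision. Alternatives were the filter, centring, cyclic loess, array weights, sex, marker scores, the adjustment, the probe set rule and leaving out each animal; the background level of the arrays was added after the data were seen. Animals are numbered within a diet in deposit order.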

Additional observations from a re-analysis of the deposited data

How the results depend on the processing

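The H minus L difference of TNFSF13B stayed between 0.69 and 0.92 under the alternatives other than the monocyte and neutrophil scores as covariates (0.24) and between 0.77 and 1.05 with each animal left out. The H minus L signs of TNFSF13, TNFRSF13C and TNFRSF17 were the same under every alternative run, and none of the 5 genes was given a test on diet. The H minus L difference of TNFRSF13B was 0.0012 with the monocyte and neutrophil scores as covariates, against -0.09. In M minus L the same covariates gave -0.017 for TNFSF13B, against 0.21. With the background level as a covariate M minus L of TNFRSF13B was -0.0042, against 0.09. The table-wide number of calls did depend on the processing. H minus L gave 0 calls with no filter, with centred arrays, cyclic loess, sex left out or a Benjamini-Hochberg adjusted p under 0.05, 3 with a stricter filter, 943 with array weights and 118 with the background level as a covariate, against 6. H minus M gave 0, 0, 1, 0 and 0 for the first 5 of these, 41 with array weights and 9 with the background level, against 5. Leaving out 1 animal gave 0 to 312 calls in H minus L (57 without L animal 4, 312 without L animal 5, 125 without H animal 7, 8 without M animal 6, 4 without H animal 2 and 0 without any of the other animals), 0 to 91 in H minus M and 0 to 1 in M minus L (1 without L animal 5 or M animal 7). Of the 78 pathway genes 4 were called with array weights, and 0 to 2 with an animal left out (2 without L animal 5). At an unadjusted p under 0.01 there were 4 with array weights, 1 with sex left out, 2 with the background level, 1 with any probe set of a gene and 0 to 8 with an animal left out (5 without L animal 5, 8 without H animal 7). The cause was not tested. 

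Among correlations, the r of TNFSF13B with TNFRSF17 was -0.54 (adjusted permutation p = 0.140) with diet and sex means removed. With an animal left out it ranged from -0.74 to -0.46 and passed the threshold in 5 of 20 cases (without L animal 2, M animal 3 or 6, or H animal 4 or 5). The r of TNFSF13B with TNFRSF13C ranged from -0.59 to -0.48 and passed in 6 of 20 (without L animal 2, 3 or 5, M animal 5 or 6, or H animal 5). The r of TNFSF13 with TNFRSF13B ranged from -0.76 to -0.61 and was lost in 3 (M animal 1, H animal 3 or 7), and that of TNFSF13B with the B cell markers from -0.67 to -0.52, lost in 4 (L animal 6, M animal 4, H animal 4 or 6). With 1 H animal left out the r of TNFRSF13C with T cell markers (0.38 to 0.56, H animal 3) and of TNFRSF17 with T cell (0.28 to 0.68) and neutrophil markers (-0.61 to -0.37, H animal 5 for both) passed. With the background level removed the r of TNFSF13 with TNFRSF13B was -0.46. Of the sex differences, diet-by-sex differences and correlations, values with no call changed sign in these cases. With the background level as covariate or removed, the sex difference was -0.0862 for TNFRSF13B and 0.0298 for TNFRSF13C, and r was -0.0181 for TNFSF13 with TNFRSF13C, -0.0811 with TNFRSF17 and -0.0711 with B cell markers. For TNFRSF13B it was 0.48 with TNFRSF13C, 0.0578 with TNFRSF17, 0.41 with B cell and 0.00599 with T cell markers. Array weights gave a sex difference of -0.0376 for TNFRSF13B and a diet-by-sex difference of -0.13 for TNFRSF17. The r of TNFRSF13B was 0.00941 with TNFRSF13C after diet and sex means were removed and 0.0274 with TNFSF13B after centring. With an animal left out the sex difference ran from -0.0355 to 0.0596 for TNFRSF13B and from -0.0654 to 0.17 for TNFRSF17, the diet-by-sex difference of TNFRSF17 from -0.23 to 0.58, and the r of TNFRSF13B from -0.31 to 0.00567 with TNFRSF13C and from -0.17 to 0.0511 with neutrophil markers.

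TNFSF13 has no value under the stricter filter and under cyclic loess, which were run on kept probe sets, and TNFRSF17 has none under the stricter filter. Averaging the probe sets of a gene changes nothing, as each of the 5 genes has 1. No paired analysis was possible because the labels give no replicate number shared between diets. Low signal limits what can be said of TNFSF13, and the relation to array background what can be said of TNFRSF13B. The background level was also related to TNFRSF17 (r = -0.54), TNFRSF13C (r = -0.60) and TNFSF13 (r = -0.55), which limits what can be said of these genes too.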
